A study of Mus musculus with 28 samples.

Results

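Small-intestinal organoids of mice were compared with and without Tgfb, the transforming growth factor beta ligand, by mRNA sequencing. The comparison held 6 samples of the 28 in the series: 3 untreated controls and 3 given recombinant Tgfb at 500 ng/ml for 24 h, chosen by their labels and measured in a table of their own. All 6 were wild-type C57BL/6 epithelium, and no allele or transgene was given for any of them. Crypts had first been seeded for 48 h in ENR, a medium with EGF, the BMP antagonist Noggin and the Wnt agonist R-spondin, to which no Bmp or Tgfb had been added, and the organoids were moved to fresh gel before treatment. The isoform of Tgfb, the sex and age of the mice and the intestinal segment were not given in the labels. Nor did the labels say whether the samples came from separate mice or cultures, so p-values measure the spread between these samples, which may be technical.

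Tgfb binds a type II receptor, which activates a type I receptor, and the pair phosphorylates Smad2 and Smad3. These join Smad4 and enter the nucleus, where they raise or lower transcription together with partner factors such as AP-1. Inhibitory Smads, ubiquitin ligases and co-repressors, many of them induced by the signal, then shut it down. In the intestine, epithelial responses to Tgfb are known for growth arrest, matrix and adhesion changes and a role in repair, and the related BMP ligands form a gradient that is strongest toward the villus.

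Levels were in TPM, a measure of transcript abundance that adjusts for transcript length and sums to 1000000 in every sample. A total of 55416 genes were listed and 26322 were above 0 in at least 1 sample. The test ran on the 12959 genes with a mean of at least 1 TPM over the 6 samples. A gene near 0 in 1 group could reach that filter only through the other group. This favours a call of change in lists of low genes. The samples held 12324 to 12652 genes at 1 TPM or more. Transcripts of the mitochondrial genome took 10.9% to 19.7% of all TPM, with replicate 1 highest in both groups (19.5% untreated, 19.7% with Tgfb). Sequencing depth is unknown, since TPM keeps none. Across genes, samples of the same group correlated at r = 0.953 to 0.96 and samples of different groups at 0.844 to 0.857 (log2(TPM + 1), genes not independent). Epithelial identity was checked first: Epcam, an adhesion protein of all gut epithelium, was at 731, 785 and 753 TPM untreated and 1790.0, 1932 and 2205 TPM with Tgfb. Of 11 mesenchymal marker genes 0 reached the filter, and 5, among them Col3a1 and Dcn, were listed at 0 in all 6 samples. Their summed level was 0.276 to 0.399 TPM untreated and 0.695 to 1.4 TPM with Tgfb. Markers of immune cells summed to 3.42 to 3.9 and 4.15 to 4.25 TPM, and those of endothelial cells to 0.416 to 0.707 and 0.524 to 0.806 TPM, in the same order. Of the 2 immune markers that reached the filter, Cd68, a lysosomal protein abundant in macrophages, was higher (log2 change 0.75), and Lyz2, a lysozyme, did not pass (limma adjusted p 0.114, but 0.0429 under quantile normalization). The part of these cells in the results was not tested.

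The first question was how much of the measured transcriptome Tgfb changed. By limma with Benjamini-Hochberg adjustment at 0.05, 3550 genes were higher (27.4% of those tested) and 3798 lower (29.3%), 56.7% in all. At least 2-fold changes were found for 1444 genes that were higher (11.1%) and 1093 that were lower (8.43%). The 3 Tgfb samples lay wholly above or wholly below the 3 untreated samples for 64.6% of genes. Changes of at least 10-fold were more often rises (124 genes) than falls (44 genes). All changes here and below are on the log2(TPM + 1) scale, which understates the change of low genes. The median change over all genes tested was -0.04. The counts of gene groups and the statements of no overlap below are to be read against these shares.

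**Figure D1:**
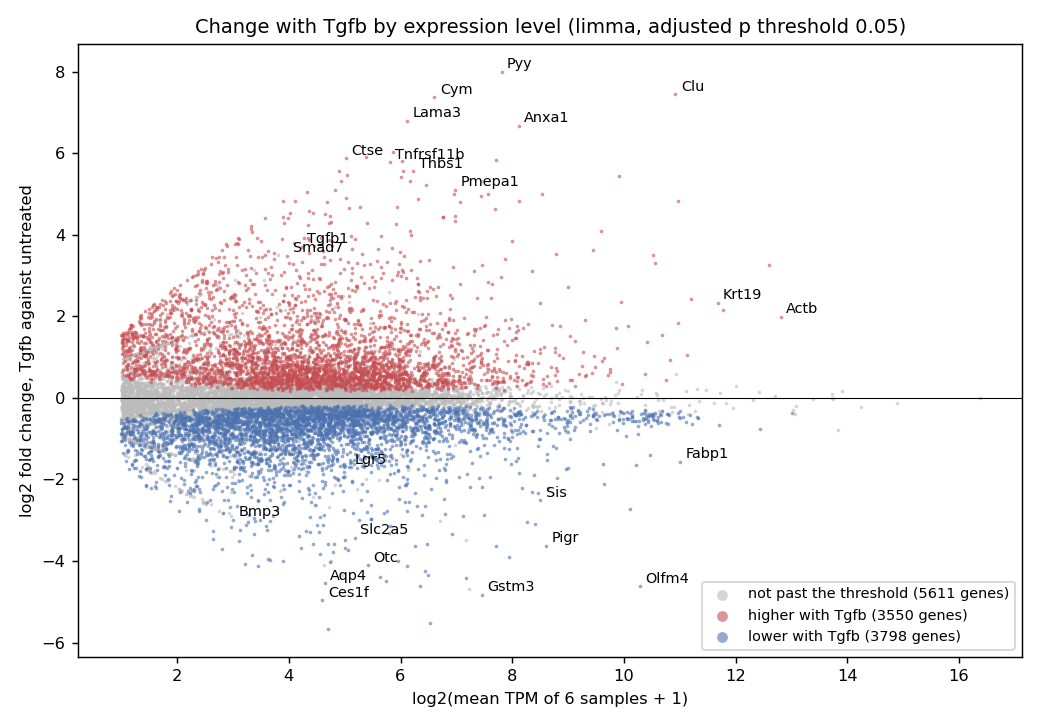
Each point is 1 of the 12959 genes tested. The horizontal axis is the log2 of the mean TPM of 6 samples plus 1, the vertical axis the log2 fold change of Tgfb against untreated, and colour gives the limma call. Rises reach further from 0 than falls: Pyy, Clu and Cym lie above 7, and of the labelled falls Ces1f lies lowest at -4.96.

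The largest rises included a gut hormone, a secreted chaperone and digestive proteases. Pyy (ENSMUSG00000017311), the hormone peptide YY of the distal gut, was at 0.611, 0.741 and 0.693 TPM untreated and 386, 328 and 622 TPM with Tgfb. Clu (ENSMUSG00000022037), the secreted chaperone clusterin and a mark of regenerating crypt cells, was at 27.2, 20.7 and 16.5 TPM untreated and 3961, 3589 and 4015 TPM with Tgfb. Every Tgfb sample was far above every untreated one for both, with log2 changes of 8.00 and 7.45 (limma adjusted p 3.73e-06 and 2.43e-06). Cym (ENSMUSG00000046213), the milk-clotting stomach protease chymosin, was at 0.156, 0.183 and 0.147 TPM untreated and 217, 172 and 189.8 TPM with Tgfb. Ctrb1, the pancreatic digestive enzyme chymotrypsinogen B, and Ctse, the gastric protease cathepsin E, had log2 changes of 5.85 and 5.88. Anxa1 and Anxa8, calcium-dependent membrane-binding annexins, had changes of 6.68 and 6.02. Aldh1a3, which makes retinoic acid, rose by 5.90, and Tnfrsf11b, the decoy receptor osteoprotegerin, by 5.77. The 15 largest rises among genes with a mean of at least 10 TPM and no overlap between the groups also held Lama3 and Thbs1, both described below, and Ly6d, a surface protein of keratinocytes and lymphoid progenitors. Dok2, an adaptor protein (5.80, or 6.61 without untreated replicate 1), P2rx2, an ATP-gated ion channel, and Cwh43 completed them, and the smallest change of the 15 was 5.48 for Cwh43.

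The largest falls held a crypt marker and enzymes of nitrogen and foreign-compound metabolism. Olfm4 (ENSMUSG00000022026), the secreted glycoprotein that marks crypt stem and progenitor cells, was at 2416, 2589 and 2152 TPM untreated and 91.8, 98.1 and 96.7 TPM with Tgfb. Arg2 (ENSMUSG00000021125), the mitochondrial arginase, was at 98.7, 90.7 and 93.2 TPM untreated and 4.2, 3.31 and 3.15 TPM with Tgfb. Otc, the urea-cycle enzyme ornithine transcarbamylase, was at 76, 82.8 and 79.6 TPM untreated and 3.33, 4.26 and 3.5 TPM with Tgfb. By their means Olfm4 was 25-fold, Arg2 26.5-fold and Otc 21.5-fold lower, with no overlap between the groups. In bulk RNA, fewer cells of a type and less RNA per cell cannot be told apart, here or below. Aqp4, a water channel, changed by -4.55, and Slc27a2, a fatty acid transport protein and acyl-CoA synthetase, by -4.02. Ces1f, a carboxylesterase, Gstm3, a glutathione transferase, and Cyp2c29, a cytochrome P450, changed by -4.96, -4.83 and -4.24. Among the 15 were also genes whose values are uncertain because near-identical copies share their reads, namely Defa32, Defa-ps6, Gvin-ps3 and 2 genes both named Gvin-ps1. Defa32 was at 146, 158 and 195 TPM untreated and 46.1, 0 and 0 TPM with Tgfb, so 1 Tgfb sample held all of its remaining signal, and its adjusted p of 0.0194 by limma became 0.0517 to 0.0617 in 5 of the 6 fits that each left out a sample, with a log2 change of -7.37 without Tgfb replicate 1 and -4.59 without Tgfb replicate 2 or 3. Gm27149 and a gene with no symbol (ENSMUSG00002076344, listed at 0 in all 3 Tgfb samples) completed the 15.

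The pathway's own components were examined by role, beginning with the ligands. Of 23 ligands of the superfamily 6 reached the filter, and 4 were higher and 2 lower, against 27.4% higher and 29.3% lower of all genes tested. Bmp4 and Bmp8b reached the filter only through the Tgfb samples and Bmp3 only through the untreated ones, so the filter favoured their calls. With no filter 6 of 20 were higher and 3 lower. In each fit without a Tgfb sample 3 of 5 were higher and 2 lower. Tgfb1 (ENSMUSG00000002603), the ligand that gave the family its name, was at 3.21, 0.94 and 1.33 TPM untreated and 32.7, 32.4 and 36.4 TPM with Tgfb. Every Tgfb sample was above every untreated one, an 18.5-fold difference of the means (log2 change 3.70, SE 0.28, limma adjusted p 9.3e-05). Tgfb2 and Tgfb3 were at most 0.0839 TPM in every sample. Bmp8b was at 0.835, 0.82 and 1.13 TPM untreated and 8.96, 9 and 9.82 TPM with Tgfb. Bmp2 was at 1.78, 1.83 and 1.86 TPM untreated and 3.35, 3.59 and 5.12 TPM with Tgfb. Bmp4 was listed at 0 in all 3 untreated samples and at 1.4, 1.66 and 2.95 TPM with Tgfb. The epithelium's other 2 measured ligands went down: Bmp3, an atypical member that can oppose other BMPs, was at 13.4, 13.3 and 13.1 TPM untreated and 0.566, 0.755 and 1.11 TPM with Tgfb. Bmp7 was at 8.49, 11 and 9.77 TPM untreated and 1.56, 1.82 and 1.19 TPM with Tgfb. Both groups of values were clear of each other for all 6 ligands, as was so for 64.6% of all genes tested.

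Of 13 receptors 8 reached the filter, 4 were higher and 0 lower. Without Tgfb replicate 1, 2 of 9 measured were lower, and without Tgfb replicate 2 or 3, 1 of 9. Tgfbr2 (ENSMUSG00000032440), the type II receptor that binds Tgfb, was at 16.4, 17.6 and 18 TPM untreated and 36.5, 42.3 and 40.6 TPM with Tgfb (log2 change 1.15, SE 0.079, limma adjusted p 6.28e-05). Tgfbr1, its type I partner, changed less, at 14.5, 16.3 and 15.6 TPM untreated and 18.9, 18.4 and 20.9 TPM with Tgfb, and its limma adjusted p of 0.0164 was 0.0502 without untreated replicate 1. Acvr1, a type I receptor of BMPs and activins, was at 7.73, 7.96 and 8.16 TPM untreated and 38.4, 43.8 and 44.3 TPM with Tgfb. Bmpr2, the BMP type II receptor, changed by 1.54. Bmpr1a, the main type I BMP receptor of the epithelium, Acvr1b, Acvr2a and Acvr2b did not pass the test, with log2 changes of 0.06, -0.11, 0.23 and -0.32. The Bmpr1a value turned negative under quantile normalization, and the limma adjusted p was 0.0467 for Acvr2a without untreated replicate 2 and 0.0498 for Acvr2b without Tgfb replicate 1.

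Of 7 Smads with enough signal, 5 were higher and 1 lower, and 3 were higher and 0 lower when replicate 1 of both groups was left out. Smad7 (ENSMUSG00000025880), the inhibitory Smad that Tgfb induces, was at 1.66, 1.27 and 1.69 TPM untreated and 21.3, 31.5 and 30.7 TPM with Tgfb. Smad6, the inhibitory Smad of the BMP branch, was at 0.551, 0.549 and 0.586 TPM untreated and 2.48, 2.81 and 2.93 TPM with Tgfb. Among the receptor Smads, Smad3 was at 11.5, 11.9 and 13.3 TPM untreated and 25.8, 29.8 and 35.5 TPM with Tgfb. Smad2 was at 24.8, 29.8 and 30.2 TPM untreated and 40.1, 35.9 and 43.9 TPM with Tgfb. Every Tgfb sample was above every untreated one for both, but Smad3 gained more (log2 1.23, SE 0.125) than Smad2 (log2 0.49, SE 0.11). That gap between the genes was not tested. In the BMP branch Smad5 changed by 0.42 and Smad1 by -0.32. Smad4, the shared partner, did not pass, at 46.7, 54.3 and 48.8 TPM untreated and 46.6, 54.6 and 58.2 TPM with Tgfb, and its small change turned negative under quantile normalization.

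The promoter of Smad6 holds the 8-base palindrome GTCTAGAC, which contains the letters that Smad3 and Smad4 are known to bind, and its sequence is shown for that reason. It comes from RefSeq (build GRCm38.p6, chr9:64022030-64022309, minus strand), runs 5′ to 3′ from 250 bases before to 30 bases after the start of the gene, and has the palindrome at positions 247 to 254 in capitals.
Smad6: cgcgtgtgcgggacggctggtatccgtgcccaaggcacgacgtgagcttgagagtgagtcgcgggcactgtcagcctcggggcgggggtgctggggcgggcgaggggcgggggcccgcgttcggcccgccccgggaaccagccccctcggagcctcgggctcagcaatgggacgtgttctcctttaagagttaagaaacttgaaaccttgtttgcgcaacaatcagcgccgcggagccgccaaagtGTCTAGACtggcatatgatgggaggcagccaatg
Of 27025 genes with a RefSeq promoter of 300 bases, 67 (0.248%) hold this palindrome on either strand. Among the 100 largest rises 70 had a promoter in that table and 0 held it, and among the 100 largest falls 75 had one and 0 held it. The shorter motif CAGACA was found in a promoter of 23.6% of all 27025 genes. Among the genes with a promoter it was found for 22.9% of the largest rises and 14.7% of the largest falls. The letters describe these windows and say nothing of binding.

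All 6 measured genes of Tgfb latency and activation were higher, with a median log2 change of 3.24. Thbs1 (ENSMUSG00000040152), thrombospondin 1, which can free Tgfb from its latent complex, was at 1.97, 2.48 and 1.88 TPM untreated and 157, 130.5 and 150.0 TPM with Tgfb, the largest change of the group (log2 5.56, SE 0.108, limma adjusted p 1.71e-06). Itgav and Itgb6, the 2 chains of an epithelial integrin that activates latent Tgfb, were also higher. Itgav was at 5.62, 5.66 and 8.91 TPM untreated and 61.9, 76.9 and 78.8 TPM with Tgfb. Itgb6 was at 4.72, 24.3 and 4.88 TPM untreated and 86.6, 85 and 88.3 TPM with Tgfb, where untreated replicate 2 stood above the other 2 but still far below the Tgfb samples, and the log2 change of 3.21 was 3.92 without it. Ltbp4, which tethers latent Tgfb to matrix, was at 0.119, 0.149 and 0.0753 TPM untreated and 11.7, 7.71 and 10.7 TPM with Tgfb. Furin, the protease that cleaves the Tgfb precursor, changed by 2.12, and Mmp14, a membrane-bound matrix metalloprotease, by 1.74. The other 5 genes of the list lay below the filter. Ltbp4 reached it only through the Tgfb samples, so the filter favoured the count of this list. With no filter 9 of 11 were higher and 0 lower, with a median log2 change of 1.74.

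Inhibitors and co-repressors of the pathway were higher in 8 of 10 measured cases, and 1 was lower. Pmepa1 (ENSMUSG00000038400), a membrane protein that sequesters receptor Smads, was at 6.52, 5.66 and 6.28 TPM untreated and 239, 250.3 and 243 TPM with Tgfb. Its log2 change was 5.10 (SE 0.0691, limma adjusted p 1.3e-06), and the samples of each group lay close together. Skil, the co-repressor SnoN, was at 6.84, 7.07 and 8.36 TPM untreated and 87.5, 83.8 and 85.8 TPM with Tgfb. Ski was at 15.4, 16.2 and 15.6 TPM untreated and 39.2, 36.1 and 41.9 TPM with Tgfb. The ubiquitin ligases Smurf1 and Smurf2 changed by 2.29 and 0.65. The homeodomain co-repressors diverged. Tgif1 was at 44.2, 46 and 47.8 TPM untreated and 117, 111 and 134 TPM with Tgfb. Tgif2 was at 9.84, 11.1 and 10.6 TPM untreated and 5.06, 5.38 and 5.16 TPM with Tgfb. Fstl3, a secreted binder of activins, changed by 1.18, and Ppm1a, a Smad phosphatase, by 0.31 with a limma adjusted p of 0.0492 that was 0.0519 to 0.135 in 5 of the 6 fits without a sample. Nedd4l, a further ubiquitin ligase, did not pass (-0.58, limma adjusted p 0.0688), except without Tgfb replicate 3 (-0.81, adjusted p 0.0113) and in 2 other alternatives.

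**Figure D2:**
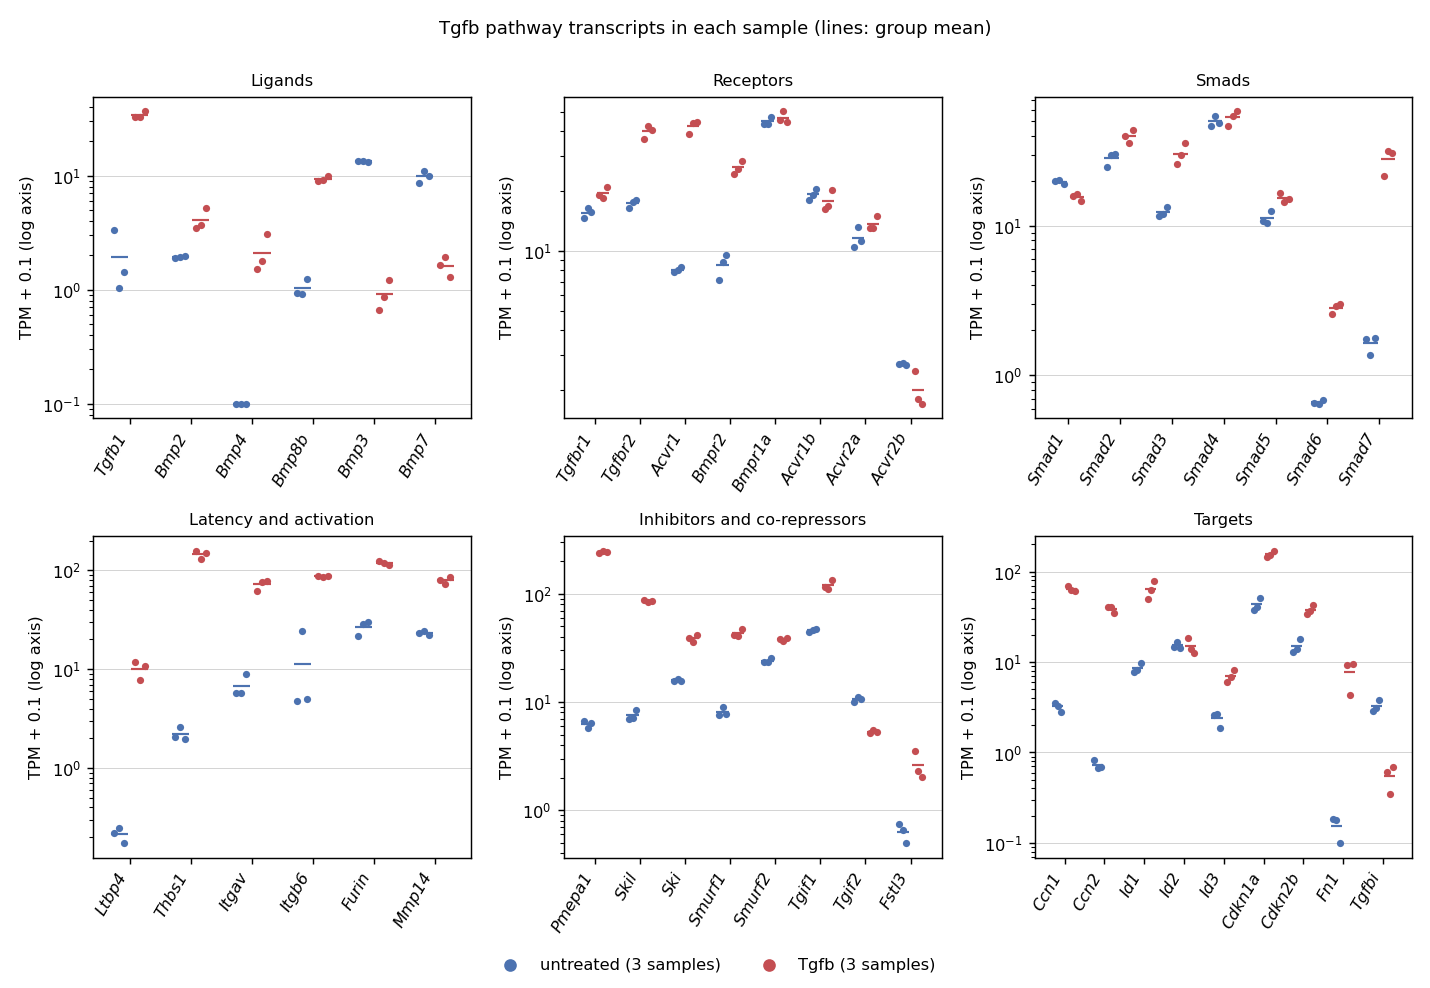
Points are single samples (blue untreated, red Tgfb; 3 each) and lines the group means. The vertical axes give TPM plus 0.1 on a log axis, with a separate range in each panel. Pmepa1, Thbs1, Ccn2, Tgfb1 and Smad7 show wide gaps between the groups, while Smad4, Bmpr1a and Id2 overlap.

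Of 20 measured genes on a list of textbook Tgfb targets, 17 were higher and 1 lower, with a median log2 change of 1.96. The list shares Pmepa1, its largest change (log2 5.10), with the inhibitors above. Ccn2 and Fn1 reached the filter only through the Tgfb samples, so the filter favoured this count. With no filter 19 of 25 were higher and 1 lower, with a median log2 change of 1.36. Ccn2 (ENSMUSG00000019997), connective tissue growth factor, was at 0.729, 0.569 and 0.594 TPM untreated and 40.2, 40.3 and 34.6 TPM with Tgfb. Ccn1 was at 3.46, 3.2 and 2.73 TPM untreated and 68.8, 62.5 and 60.6 TPM with Tgfb. Runx1, a Runt-domain transcription factor, was at 2.82, 3.1 and 2.61 TPM untreated and 51.8, 50.9 and 47.6 TPM with Tgfb. For these 3 genes every Tgfb sample was far above every untreated one. Id1 and Id3, inhibitors of helix-loop-helix factors, changed by 2.75 and 1.26, whereas Id2, also of that family, did not pass, at 14.8, 16.7 and 14.3 TPM untreated and 18.3, 14 and 12.4 TPM with Tgfb. The arrest gene Cdkn1a, which encodes p21, was at 37.5, 40.9 and 51.5 TPM untreated and 144, 152 and 170.0 TPM with Tgfb. Cdkn2b, which encodes p15, was at 12.9, 14 and 17.7 TPM untreated and 33.5, 36.3 and 42.7 TPM with Tgfb. Junb, Klf10, Bhlhe40, Nedd9 and Gadd45b, the first 3 transcription factors, the fourth a scaffold of cell adhesion and the last a stress-response gene, changed by 2.70, 1.24, 1.97, 1.95 and 1.36. Myc, the growth regulator, did not pass (-0.19, limma adjusted p 0.12, but 0.0334 under quantile normalization). Fn1, the matrix protein fibronectin, was at 0.0837, 0.079 and 0 TPM untreated and 9.15, 4.24 and 9.44 TPM with Tgfb. Tgfbi, named for its induction by Tgfb in other cells, was lower, at 2.79, 2.97 and 3.75 TPM untreated and 0.507, 0.25 and 0.589 TPM with Tgfb.

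Of 11 genes of epithelial-mesenchymal transition 3 reached the filter, and 2 of those were higher and 0 lower, with a median log2 change of 1.64. The higher ones were Fn1, with the values given above (log2 change 2.96), and S100a4. Both reached the filter only through the Tgfb samples, so the filter favoured this count. With no filter 2 of 10 were higher and 2 lower, with a median log2 change of 0.02. Snai1, Zeb1, Zeb2 and Twist1, the transcription factors that drive the transition, were at most 0.0962 TPM in all 6 samples. Vim, the filament protein vimentin, did not pass, at 7.95, 4.86 and 7.69 TPM untreated and 6.33, 8 and 8.8 TPM with Tgfb, and its value turned negative without untreated replicate 2. S100a4, a calcium-binding protein, had Tgfb replicate 3 above the others, at 0.602, 1.58 and 0.195 TPM untreated and 3.16, 2.78 and 8.41 TPM with Tgfb. Its limma adjusted p of 0.0192 was 0.0562 without untreated replicate 1 and 0.0565 without untreated replicate 3. Of 14 genes of epithelial identity 9 were higher and 1 lower, or 3 lower under quantile normalization and 2 without Tgfb replicate 1 or 3 (median log2 change 0.92). This list shares Krt8, Krt18 and Krt19 with the keratins below and holds Vil1, described below with the microvilli. Cdh1, the cell-cell adhesion protein E-cadherin, was at 262, 283 and 267 TPM untreated and 731, 768 and 846 TPM with Tgfb, and Epcam changed by 1.38. Cdx2, the homeobox factor of intestinal identity, was the 1 lower gene, at 62.7, 68.9 and 76.6 TPM untreated and 41.1, 42.2 and 48.9 TPM with Tgfb.

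Adhesion, filament and basement membrane genes rose together. All 10 measured integrins were higher (median log2 change 1.98), as were 8 of 9 keratins (median 2.36), 16 of 18 genes of the actin cytoskeleton (median 1.71) and 7 of 9 of the basement membrane and matrix (median 2.94). With no filter the medians were 1.71, 2.02, 1.54 and 0.89, in that order. The higher genes were then 11 of 11, 9 of 14, 16 of 21 and 11 of 17. Lama3 (ENSMUSG00000024421), the alpha chain of the laminin that anchors epithelia, was at 0.254, 0.181 and 0.258 TPM untreated and 123, 128 and 159 TPM with Tgfb. Its partner chain Lamb3 was at 14.9, 15.9 and 13.4 TPM untreated and 108, 113 and 140.0 TPM with Tgfb. The groups do not overlap for either chain, and Lama3 came from the lower level. Lama3 reached the filter only through the Tgfb samples, so the filter favoured its call. Itgb4, which with Itga6 binds that laminin in hemidesmosomes, changed by 2.25, and Itga6 by 0.90. Hspg2, the proteoglycan perlecan, was lower (-1.86).

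The summed TPM of the listed keratins was 2197, 2311 and 2458 TPM untreated and 11519, 12313 and 16002 TPM with Tgfb. Krt19, Krt8 and Krt18, keratins of simple epithelia, made up most of it and changed by 2.33, 2.42 and 2.36. Krt7, a keratin of ductal epithelia, was at 101, 98.5 and 104 TPM untreated and 1174, 1149 and 1525 TPM with Tgfb. Krt14, a keratin of basal cells in stratified epithelia, was at 0.265, 0.0937 and 0.111 TPM untreated and 13.1, 13.1 and 18.4 TPM with Tgfb. Among cytoskeletal genes Pdlim7, an actin-binding adaptor, was at 3.01, 3.77 and 3.98 TPM untreated and 114, 103 and 132 TPM with Tgfb. Actb, cytoplasmic beta-actin and a common reference gene, was at 2742, 2874 and 3007 TPM untreated and 10638, 11230.0 and 12579 TPM with Tgfb. Of 10 common reference genes 3 were higher and 4 lower, against 27.4% higher and 29.3% lower of all genes tested. Gapdh did not pass (0.18, limma adjusted p 0.182, but 0.0456 with mitochondrial genes left out).

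Of 15 measured tight junction genes 9 were higher and 2 lower. Cldn4 (ENSMUSG00000047501), a barrier-sealing claudin, was at 17.6, 24.6 and 22 TPM untreated and 658, 709.7 and 772 TPM with Tgfb. Cldn23 changed by 2.72 and the abundant Cldn7 by 0.56. The 2 lower genes were both pore-forming claudins. Cldn15 was at 137, 148 and 151 TPM untreated and 18, 19.2 and 19.5 TPM with Tgfb. Cldn2 was at 108, 119 and 125 TPM untreated and 60.7, 62.2 and 67.5 TPM with Tgfb.

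Extracellular proteases and their inhibitors were higher in 10 of 11 cases (median log2 change 1.74). Timp3, an inhibitor of matrix metalloproteases, was at 1.1, 1.22 and 0.961 TPM untreated and 62.7, 57.7 and 66.5 TPM with Tgfb. Plaur, the receptor of urokinase, was at 2.21, 3.4 and 3.75 TPM untreated and 71.8, 75.3 and 91.2 TPM with Tgfb. Plau, urokinase itself, was at 0.167, 0.0649 and 0.139 TPM untreated and 6.59, 5.91 and 4.51 TPM with Tgfb. Mmp7, matrilysin, which Paneth cells make, was the most abundant of the list and changed by 0.86.

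Genes of fetal-like and regenerating epithelium were higher in 16 of 17 measured cases, with a median log2 change of 3.64. Beside Clu, S100a6, a calcium-binding protein, was at 100.3, 131 and 173 TPM untreated and 2983, 3799.6 and 4760.3 TPM with Tgfb. Sprr1a, a cornified-envelope protein seen in repair, was at 6.37, 7.97 and 11.7 TPM untreated and 156, 215 and 249 TPM with Tgfb. Il1rn, the interleukin 1 receptor antagonist, was at 9.2, 8.18 and 7.42 TPM untreated and 248, 247 and 276 TPM with Tgfb. Ly6a, the surface protein Sca-1 that marks fetal-like gut epithelium, was at 7.53, 7.32 and 9.67 TPM untreated and 45.7, 51.7 and 55.8 TPM with Tgfb. Each of these 4 genes had all Tgfb samples above all untreated ones, and 64.6% of all genes tested had no overlap in 1 direction or the other. Ereg, the growth factor epiregulin, was the 1 gene that did not pass (limma adjusted p 0.0764). Of the 14 measured targets of the growth regulator YAP, 13 were higher (median 2.36). They shared Ccn1 and Ccn2 with the Tgfb list. Ccn2 and Lats2 reached the filter only through the Tgfb samples, so the filter favoured the YAP count. With no filter 16 of 22 YAP targets were higher and 0 lower (median 1.31). F3, the clotting receptor tissue factor, was at 8.53, 9.45 and 12.1 TPM untreated and 313, 305 and 393 TPM with Tgfb. Lats2, a kinase that restrains YAP, was at 0.757, 1.08 and 0.753 TPM untreated and 41.7, 5.9 and 6.28 TPM with Tgfb, so its change of 2.80 leans on Tgfb replicate 1 and was 1.93 without it.

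AP-1 and other immediate early genes were higher in 11 of 12 measured cases (median log2 change 2.45). Fos was at 7.77, 5.44 and 7.88 TPM untreated and 120.1, 127 and 157 TPM with Tgfb, and Junb and Jun changed by 2.70 and 2.39. Klf6, a zinc-finger factor and the most abundant gene of that list, was at 34.7, 35.1 and 28.9 TPM untreated and 239, 233 and 229 TPM with Tgfb, and Ier3, a stress-response gene, changed by 3.33. Jund, also an AP-1 subunit, changed by only 0.70, and Ier2 did not pass (0.17, limma adjusted p 0.114, and 0.0462 without Tgfb replicate 1). The letters TGANTCA, where N is any base, hold the core that AP-1 binds, and were searched on both strands of the RefSeq promoters. A gene counted once if any of its promoters held them, so genes with more promoters had more chances to match. This was so for 8.97% of all 27025 genes with a promoter. It was so for 12 of the 70 such genes among the largest rises (17.1%) and 13 of the 75 among the largest falls (17.3%). The share was thus about as high among falls as among rises. The promoters of the 5 named genes with the largest rises that hold the motif are shown so that its position can be seen. Each runs 5′ to 3′ on the strand of the gene from 250 bases before to 30 bases after its start (RefSeq, build GRCm38.p6), with the motif in capitals.
Cldn4, chr5:134946905-134947184, minus strand: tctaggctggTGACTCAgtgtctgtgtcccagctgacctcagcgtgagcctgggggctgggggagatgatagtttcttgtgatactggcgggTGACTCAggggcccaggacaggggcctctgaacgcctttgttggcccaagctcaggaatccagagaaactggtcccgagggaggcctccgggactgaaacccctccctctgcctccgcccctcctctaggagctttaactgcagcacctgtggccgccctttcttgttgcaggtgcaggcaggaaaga
Anxa10, chr8:62123164-62123443, minus strand: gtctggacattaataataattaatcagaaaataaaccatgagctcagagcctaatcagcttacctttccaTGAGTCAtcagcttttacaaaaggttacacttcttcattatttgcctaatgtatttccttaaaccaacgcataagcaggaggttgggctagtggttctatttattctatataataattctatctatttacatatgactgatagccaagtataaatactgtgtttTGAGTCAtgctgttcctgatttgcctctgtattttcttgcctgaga
F3, chr3:121723287-121723566, plus strand: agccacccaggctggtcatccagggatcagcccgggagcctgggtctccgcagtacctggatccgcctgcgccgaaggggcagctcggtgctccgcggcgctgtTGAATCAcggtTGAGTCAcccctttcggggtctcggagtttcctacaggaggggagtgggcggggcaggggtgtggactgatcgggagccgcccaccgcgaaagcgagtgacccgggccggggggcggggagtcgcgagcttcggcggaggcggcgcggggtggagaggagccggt
Il1rn, chr2:24336610-24336889, plus strand: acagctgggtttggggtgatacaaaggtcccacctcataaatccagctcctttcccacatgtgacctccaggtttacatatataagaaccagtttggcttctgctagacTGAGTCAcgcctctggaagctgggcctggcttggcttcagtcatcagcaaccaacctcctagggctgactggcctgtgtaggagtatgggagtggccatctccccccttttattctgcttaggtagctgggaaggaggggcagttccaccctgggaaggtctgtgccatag
Plaur, chr7:24462233-24462512, plus strand: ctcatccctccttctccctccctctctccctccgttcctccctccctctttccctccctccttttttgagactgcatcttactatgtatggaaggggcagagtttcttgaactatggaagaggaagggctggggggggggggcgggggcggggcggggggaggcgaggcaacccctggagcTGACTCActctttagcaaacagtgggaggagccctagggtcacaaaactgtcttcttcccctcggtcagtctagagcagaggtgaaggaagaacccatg
In F3 the 2 matches lie at positions 105 to 111 and 116 to 122. Cldn4 and Anxa10 also hold 2 matches each, Il1rn and Plaur 1. Il1rn has 3 promoters in the table, and the 1 printed is the one with a match. A match is a description of letters, and the motif was not tested for a role.

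Genes of the EGF receptor family and its ligands were higher in 8 of 10 measured cases and 1 was lower. Egfr was at 11.2, 10.6 and 11 TPM untreated and 71.1, 73 and 91.9 TPM with Tgfb. The ligands Areg, Btc, Hbegf and Tgfa changed by 2.95, 2.58, 2.15 and 1.52. Feedback inhibitors went opposite ways: Errfi1, which blocks the receptor's kinase, was at 24.5, 19.3 and 19.4 TPM untreated and 141, 120.1 and 145 TPM with Tgfb. Lrig1, which promotes its degradation and marks crypt cells, was at 72.1, 76.5 and 75.5 TPM untreated and 27.6, 31.3 and 23.7 TPM with Tgfb.

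All 21 measured genes of mitosis and all 24 of DNA replication were lower, with median log2 changes of -1.41 and -1.32. The summed level of the mitosis genes was 1351, 1448 and 1439 TPM untreated and 563, 541 and 519 TPM with Tgfb. Aurkb, a kinase of chromosome segregation, was at 45.3, 52.9 and 46.4 TPM untreated and 13.8, 14 and 11 TPM with Tgfb. Tk1, the S-phase thymidine kinase, was at 44.9, 52.5 and 55.7 TPM untreated and 10.4, 10.4 and 8.1 TPM with Tgfb. Top2a, a DNA topoisomerase, and Mki67, the proliferation antigen Ki-67, changed by -1.42 and -1.42. The slightest fall was that of Kif23, a kinesin (-0.29, limma adjusted p 0.04, and 0.0584 to 0.111 in 5 of the 6 fits without a sample), and the Tgfb samples kept a mean of 66.1 TPM of Top2a. Among cell cycle inhibitors and p53 targets 10 of 19 were higher and 4 lower. Gadd45a, a stress-response gene, was at 26.6, 27.4 and 17.8 TPM untreated and 135, 122 and 152 TPM with Tgfb. Bcl2l11, the cell-death protein Bim, was at 4.95, 5.82 and 4.66 TPM untreated and 33.7, 31.9 and 34.8 TPM with Tgfb. Cdkn2c and Cdkn2d, further cyclin-kinase inhibitors, were lower (-1.57 and -0.83).

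Crypt stem cell genes divided. Of 16 measured 10 were lower and 6 higher (median log2 change -0.98). Lgr5, the R-spondin receptor that defines these cells, was at 44.7, 45.2 and 62.1 TPM untreated and 11.8, 13.7 and 19.4 TPM with Tgfb. Smoc2, a matrix protein of the same cells, was at 217, 233 and 207 TPM untreated and 26.2, 18.4 and 18.6 TPM with Tgfb. Rgmb, a BMP co-receptor, was at 67.3, 66.8 and 65.7 TPM untreated and 8.44, 5.26 and 9.08 TPM with Tgfb. Prom1, the membrane protein CD133, went the other way, at 161, 172 and 169 TPM untreated and 303, 340.2 and 298 TPM with Tgfb, as did the transcription factor Sox4, at 59.3, 66.1 and 59.6 TPM untreated and 196, 180.4 and 189.7 TPM with Tgfb. Igfbp4, a binder of insulin-like growth factors, was at 53.2, 63.7 and 60.2 TPM untreated and 170.0, 158 and 162 TPM with Tgfb. Groups did not overlap for any of these 6 genes, as was so for 64.6% of all genes tested. Wnt targets were likewise mixed, with 6 of 13 higher, 4 lower and a median of 0.05 that was -0.01 without untreated replicate 1. The shares of all genes tested were 27.4% higher and 29.3% lower. Axin2, the standard readout of canonical Wnt signalling, was at 68.2, 75 and 70.2 TPM untreated and 26.9, 27.8 and 28.6 TPM with Tgfb. Cd44, a hyaluronan receptor, was at 30.3, 36.6 and 35.7 TPM untreated and 203, 190.1 and 209.5 TPM with Tgfb. Sox9, a crypt transcription factor, was at 30.6, 30.7 and 33.1 TPM untreated and 54.5, 49.5 and 64.7 TPM with Tgfb. Of the Notch genes 4 of 11 were higher and 4 lower, against 27.4% higher and 29.3% lower of all genes tested. Without replicate 1 of both groups 2 were higher. Among the Notch genes Dll1, a ligand on secretory progenitors, and Nrarp, a feedback target, changed by -1.52 and -1.61, and Jag1 and Notch2 by 1.27 and 1.10.

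Transcripts of absorptive cells went both ways, with digestive genes lower and villus-tip genes higher. Of 18 measured brush border enzymes and transporters 16 were lower and 1 higher (median log2 change -2.14). Sis (ENSMUSG00000027790), sucrase-isomaltase, was at 546, 557 and 743 TPM untreated and 88.2, 104 and 131 TPM with Tgfb. Slc2a5, the fructose transporter, was at 48.9, 65.3 and 81.4 TPM untreated and 4.68, 3.71 and 7.16 TPM with Tgfb. Slc5a1, the sodium-glucose transporter, was at 178, 175 and 229 TPM untreated and 23.2, 26.4 and 28.1 TPM with Tgfb. No Tgfb sample reached the range of the untreated samples for these 3 genes. Alpi, intestinal alkaline phosphatase, was the 1 higher gene, at 95.6, 67.6 and 99.1 TPM untreated and 207, 194 and 238 TPM with Tgfb. Of 12 structural genes of the microvilli 6 were higher and 0 lower, but 2 were lower without Tgfb replicate 3. Vil1, the actin bundler villin, was at 216, 213 and 223 TPM untreated and 477, 459 and 571 TPM with Tgfb. Baiap2l1, a membrane-bending protein, was at 41, 36.1 and 42.6 TPM untreated and 105, 100.3 and 113 TPM with Tgfb.

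Villus-tip genes were higher in 10 of 11 cases with a median log2 change of 2.70, and all 11 were measured. Krt20, a keratin of mature enterocytes, was at 59.6, 58.7 and 85.3 TPM untreated and 614, 762 and 1043 TPM with Tgfb. Genes that handle adenosine were among them. Nt5e, the ectonucleotidase CD73, was at 0.0719, 0.0483 and 0.0904 TPM untreated and 7.56, 7.8 and 10.7 TPM with Tgfb. Ada, adenosine deaminase, was at 9.93, 8.15 and 9.95 TPM untreated and 41.6, 32.7 and 59.9 TPM with Tgfb. Slc28a2, a purine nucleoside transporter, was at 3.98, 5.64 and 3.96 TPM untreated and 43.1, 38 and 40.4 TPM with Tgfb. Klf4, a differentiation factor, was near the threshold (0.43, limma adjusted p 0.0525), and passed without untreated replicate 3 (0.029) or Tgfb replicate 1 (0.0396) and under 5 other alternatives. The list shares Egfr, Fos and Junb with lists above.

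Of 21 measured genes of lipid uptake and chylomicron assembly 8 were higher and 10 lower (median log2 change -0.46). Fabp1, the liver-type fatty acid binding protein, was at 2891, 2559.7 and 3780.1 TPM untreated and 1033, 1060.5 and 982 TPM with Tgfb, and Fabp2, the intestinal type, changed by -1.61. Apob, the scaffold of chylomicrons, was at 97.7, 100.3 and 146 TPM untreated and 340.4, 376 and 413 TPM with Tgfb. Apoa4, a chylomicron apolipoprotein, was at 386, 303 and 462 TPM untreated and 812, 704 and 1014 TPM with Tgfb. Mttp, which loads lipid onto Apob, was lower, at 253, 234 and 287 TPM untreated and 141, 131 and 162 TPM with Tgfb. Dgat2, an enzyme of triglyceride synthesis, was at 14.8, 14.1 and 23.2 TPM untreated and 61.3, 58 and 89.5 TPM with Tgfb. Its counterpart Dgat1 was at 121, 112 and 146 TPM untreated and 67.1, 61.9 and 82.1 TPM with Tgfb. Of 15 genes of fatty acid oxidation 6 were higher and 4 lower, against 27.4% higher and 29.3% lower of all genes tested. Ppara, a nuclear receptor that controls this program, was lower (-1.49). Among 18 genes of cholesterol synthesis 7 were higher and 2 lower, and the largest change belonged to Dhcr7, which makes cholesterol in its last step, at 257, 276 and 259 TPM untreated and 40.2, 74.1 and 102 TPM with Tgfb. The count of higher genes was 11 with mitochondrial genes left out. The lipid and cholesterol counts are to be read beside the same shares of all genes tested.

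**Figure D3:**
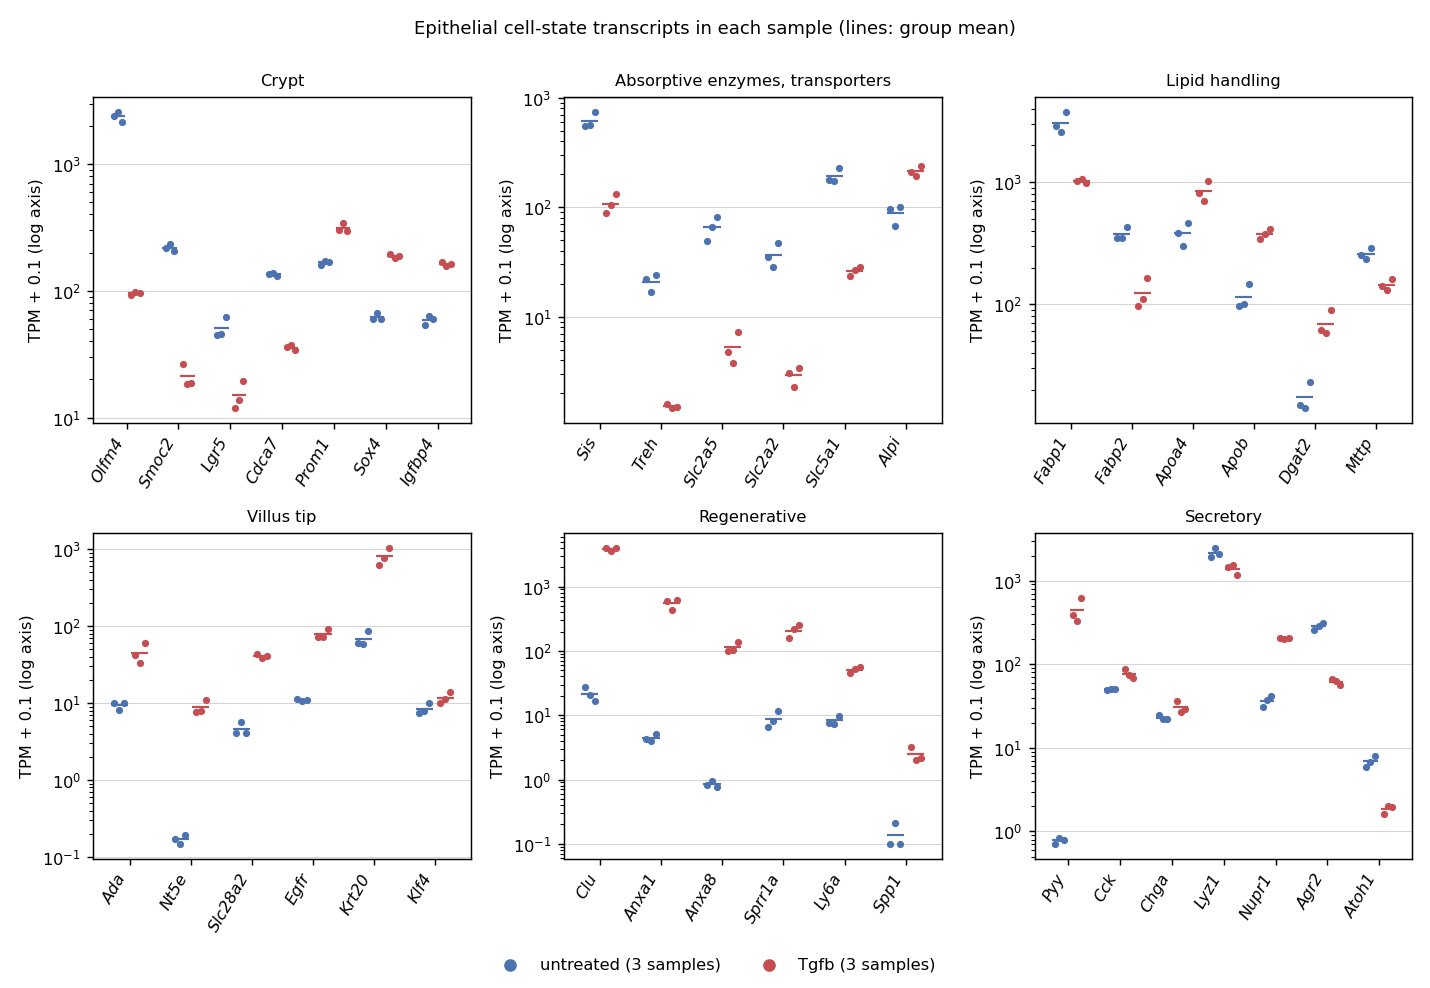
Points are single samples (blue untreated, red Tgfb; 3 each) and lines the group means, with TPM plus 0.1 on log axes of separate range. Olfm4, Smoc2, Lgr5, Sis and Slc2a5 lie lower with Tgfb, while Krt20, Clu, Anxa1 and Pyy lie higher, and the Prom1, Sox4 and Igfbp4 points lie above their untreated counterparts.

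Enzymes of drug and xenobiotic metabolism formed the longest list and were lower in 28 of 39 measured cases, with 2 higher (median log2 change -1.18). Their summed TPM was 5905, 6177 and 7343 TPM untreated and 2504, 2678 and 3506 TPM with Tgfb. Gstm1, a glutathione transferase, was at 336, 356 and 470.2 TPM untreated and 27.8, 29.2 and 33.1 TPM with Tgfb. Aldh1a1 and Aldh1b1, aldehyde dehydrogenases, changed by -3.62 and -3.91, and Cyp3a11, a cytochrome P450, by -3.82. Gsta4 and Cyp3a13 were the 2 higher genes (0.51 and 0.90), the first with a limma adjusted p of 0.0419 that was 0.0639 to 0.119 without untreated replicate 1 or 2 or Tgfb replicate 2 or 3. Members of the Gst, Cyp, Ugt and Ces families are alike in sequence, so single values are uncertain. Of the intestinal transcription factors 10 of 18 were lower and 6 higher. Vdr, the vitamin D receptor, was at 129, 117 and 114 TPM untreated and 19.5, 21.7 and 17.7 TPM with Tgfb, and Hnf4g, a nuclear receptor of enterocyte genes, changed by -1.49. Hnf4a, its relative, changed by -0.33, with a limma adjusted p of 0.0134 that was 0.0535 without untreated replicate 2. Prdm1, the repressor Blimp1 of the fetal gut, and Pparg, a lipid-sensing nuclear receptor, were higher (2.20 and 1.91).

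**Figure D4:**
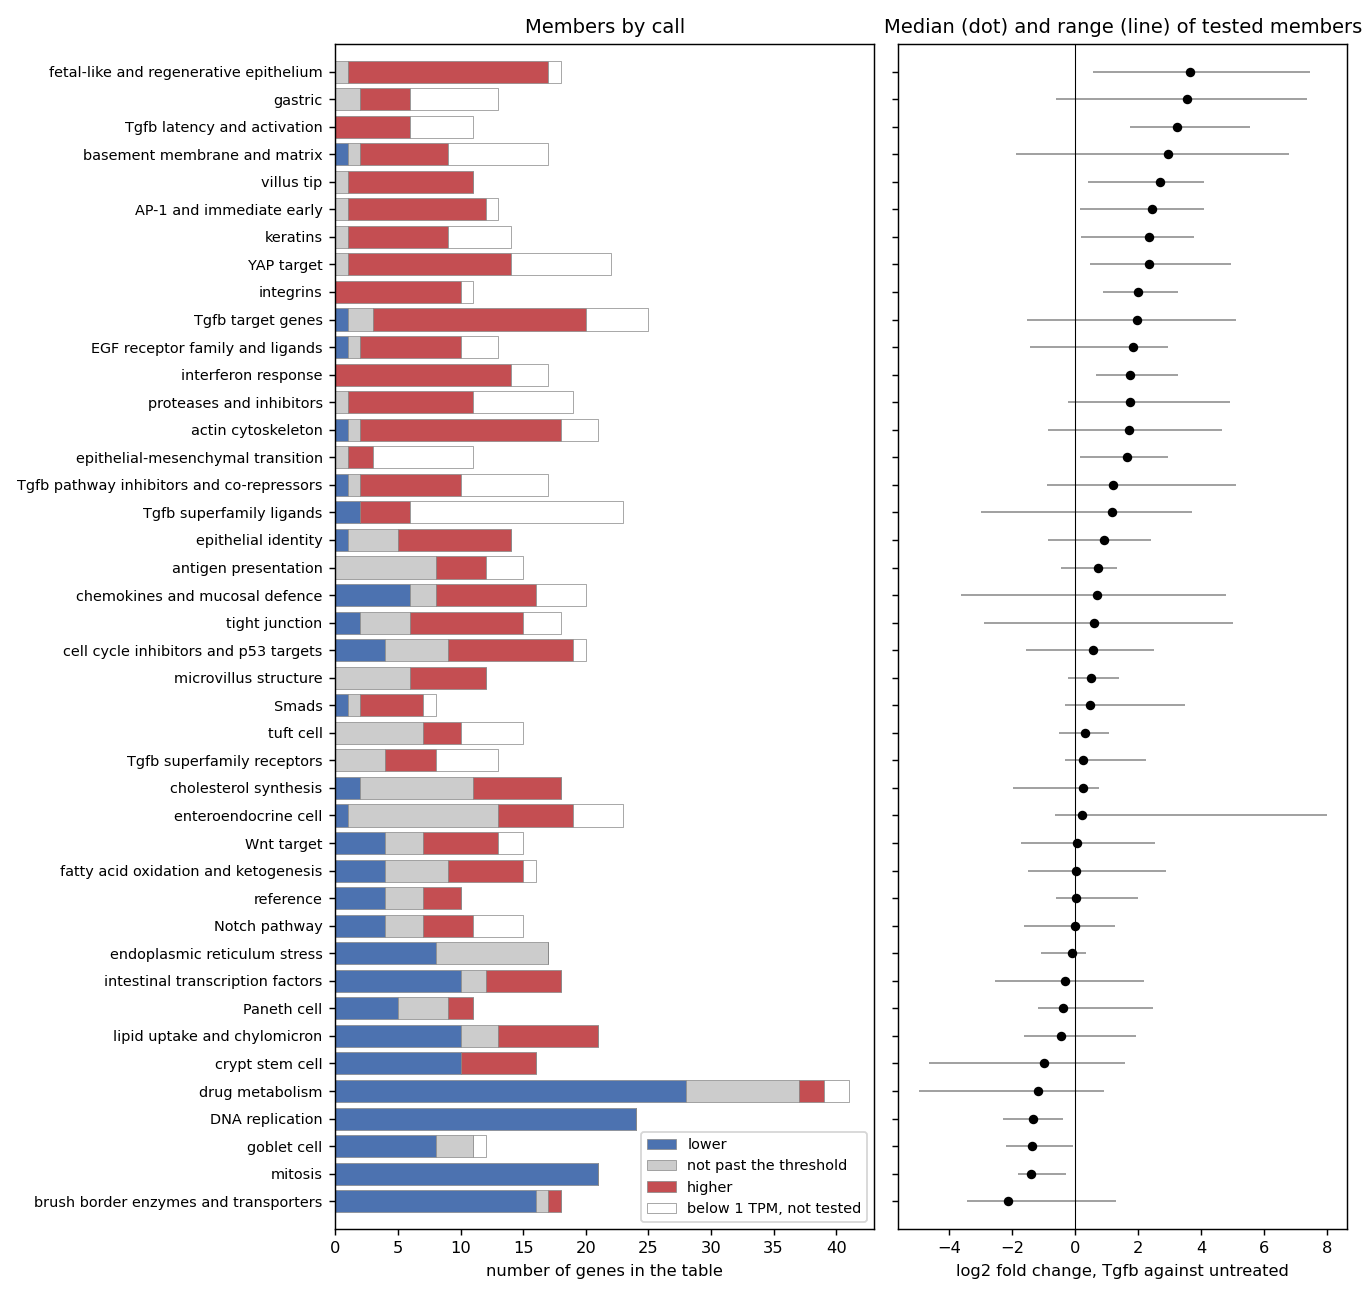
Each row is a gene list. The left panel counts its genes in the table by limma call, with white for genes below a mean of 1 TPM, and the right panel gives the median (dot) and range (line) of the log2 fold changes of its tested genes. The fetal-like list (median 3.64) and the gastric list (median 3.56 of 6 tested genes) lie at the top, and the brush border enzymes and transporters (median -2.14) at the bottom. Without untreated replicate 1 or 2 only 5 gastric genes reached the filter, and the medians of those were 4.86 and 4.96, in that order. With no filter the gastric median was 0.27 over 11 genes and the fetal-like median 3.43 over 18.

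Of 19 measured enteroendocrine genes 6 were higher, a share near the 27.4% of all genes tested, 1 was lower and 12 did not pass. Their summed TPM was 469, 474 and 443 TPM untreated and 1002, 854 and 1175 TPM with Tgfb, but 468, 473 and 442 TPM untreated and 616, 526 and 553 TPM with Tgfb when Pyy was left out. Cck, cholecystokinin, was at 49.6, 50.7 and 50 TPM untreated and 87.7, 74.8 and 68.1 TPM with Tgfb. Sst, somatostatin, was at 12.2, 10.2 and 10.6 TPM untreated and 19.9, 15.4 and 17.3 TPM with Tgfb. Gcg, proglucagon, which the same cells of the distal gut often make together with Pyy, was at 95.4, 105 and 97.3 TPM untreated and 105, 119.5 and 123 TPM with Tgfb. It did not pass (log2 change 0.22, limma adjusted p 0.0608), except without Tgfb replicate 1 (0.0234) and in 3 other alternatives. Neurog3, the factor that founds the lineage, was the 1 lower gene, at 5.36, 4.45 and 5.83 TPM untreated and 3.18, 2.35 and 3.47 TPM with Tgfb. The count of higher genes was 3 without untreated replicate 2, and that of lower genes was 2 without Tgfb replicate 1.

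Of 11 goblet cell genes 8 were lower and 0 higher (median log2 change -1.37). Agr2, a folding enzyme needed for mucin, was at 260.2, 287 and 310.0 TPM untreated and 67.4, 62.1 and 55.9 TPM with Tgfb. Spink4, a protease inhibitor, changed by -0.79. Muc2, the gel-forming mucin, was at 9.69, 13.7 and 16.8 TPM untreated and 4.88, 5.36 and 3.38 TPM with Tgfb. Atoh1, the factor of secretory fate, was at 5.86, 6.6 and 7.93 TPM untreated and 1.51, 1.89 and 1.87 TPM with Tgfb. The Paneth list was mixed at 2 higher and 5 lower of 11. Lyz1, lysozyme, was at 1931, 2478 and 2094 TPM untreated and 1471, 1534 and 1159 TPM with Tgfb, and the most abundant defensin, Defa24, did not pass (-0.39, limma adjusted p 0.08, but 0.0409 under quantile normalization). Nupr1, a stress-response protein, was higher, at 30.5, 37.7 and 41.3 TPM untreated and 207, 201 and 204 TPM with Tgfb. Defensins share reads with near-identical copies and are uncertain. In the tuft cell list 3 of 10 were higher, also near that share, and 0 lower. Without replicate 1 of both groups 1 was higher, and without untreated replicate 2 1 was lower. Trpm5, the taste-signalling channel of these cells, was at 1.59, 1.64 and 1.48 TPM untreated and 3.76, 2.66 and 5.15 TPM with Tgfb, and Dclk1, their usual marker, did not pass (-0.31).

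Of 6 measured gastric genes 4 were higher, namely Cym, Ctse, Anxa10 and Gkn3, which was at 26, 25.5 and 21.5 TPM untreated and 124, 118 and 87 TPM with Tgfb. Cym and Ctse reached the filter only through the Tgfb samples, so the filter favoured this count. With no filter 5 of 11 were higher and 0 lower, with a median log2 change of 0.27. Anxa10, an annexin of the stomach, was at 8.35, 9.83 and 13.5 TPM untreated and 319, 322 and 461 TPM with Tgfb. The gastric mucin Muc5ac and the stomach factor Sox2 were at most 0.025 TPM in all samples, and Tff1 and Pgc did not pass.

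Of 16 chemokine and mucosal defence genes 8 were higher and 6 lower. Pigr (ENSMUSG00000026417), the receptor that carries IgA to the lumen, was at 735, 708 and 705 TPM untreated and 70.1, 52.1 and 51.5 TPM with Tgfb. Reg3b, an antimicrobial lectin, was at 628, 442 and 566 TPM untreated and 64.3, 53.2 and 77.8 TPM with Tgfb. Ccl25, the chemokine that draws lymphocytes to the small intestine, was at 295, 325 and 331 TPM untreated and 39, 43.8 and 43.8 TPM with Tgfb. Cxcl16, a membrane-bound chemokine, went up, at 3.97, 5.47 and 5.87 TPM untreated and 114, 109.7 and 119.8 TPM with Tgfb. Il33, an alarm cytokine, was at 1.4, 1.58 and 1.95 TPM untreated and 19.7, 19 and 24.4 TPM with Tgfb. No sample of 1 group entered the range of the other in these 5 genes, as was so for 64.6% of all genes tested.

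All 14 measured interferon response genes were higher, with a median log2 change of 1.75. Fewer passed when a sample was left out: 12 of 14 without untreated replicate 1 or 2, 12 of 13 without Tgfb replicate 1 and 11 of 13 without Tgfb replicate 3. Isg15, a ubiquitin-like protein induced by interferon, was at 1.02, 1.6 and 3.84 TPM untreated and 23.7, 19.1 and 45.2 TPM with Tgfb. Oasl2, of the oligoadenylate synthetase family, was at 4.21, 4.88 and 10.6 TPM untreated and 51.4, 43.8 and 88.6 TPM with Tgfb. Irf7, an interferon regulatory factor, was at 4.13, 5.41 and 18 TPM untreated and 25.8, 26.8 and 38.6 TPM with Tgfb. Replicate 3 was the highest of its group for each of these 3 genes, untreated and treated. The limma adjusted p of Irf7, 0.0185, was 0.0521 to 0.0623 without untreated replicate 1 or 2 or Tgfb replicate 3. Of 12 measured antigen presentation genes 4 were higher, a share near the 27.4% of all genes tested, and 0 lower. H2-D1 and Tapbp, a class I heavy chain and its loading factor tapasin, changed by 0.87 and 1.31, but B2m, the shared light chain, did not pass (0.02, or -0.03 without untreated replicate 1). Cd74, the class II invariant chain, was at 3.81, 16.3 and 22.9 TPM untreated and 15.2, 41.5 and 43.7 TPM with Tgfb, with replicate 1 lowest in both groups, and did not pass (limma adjusted p 0.147).

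**Figure D5:**
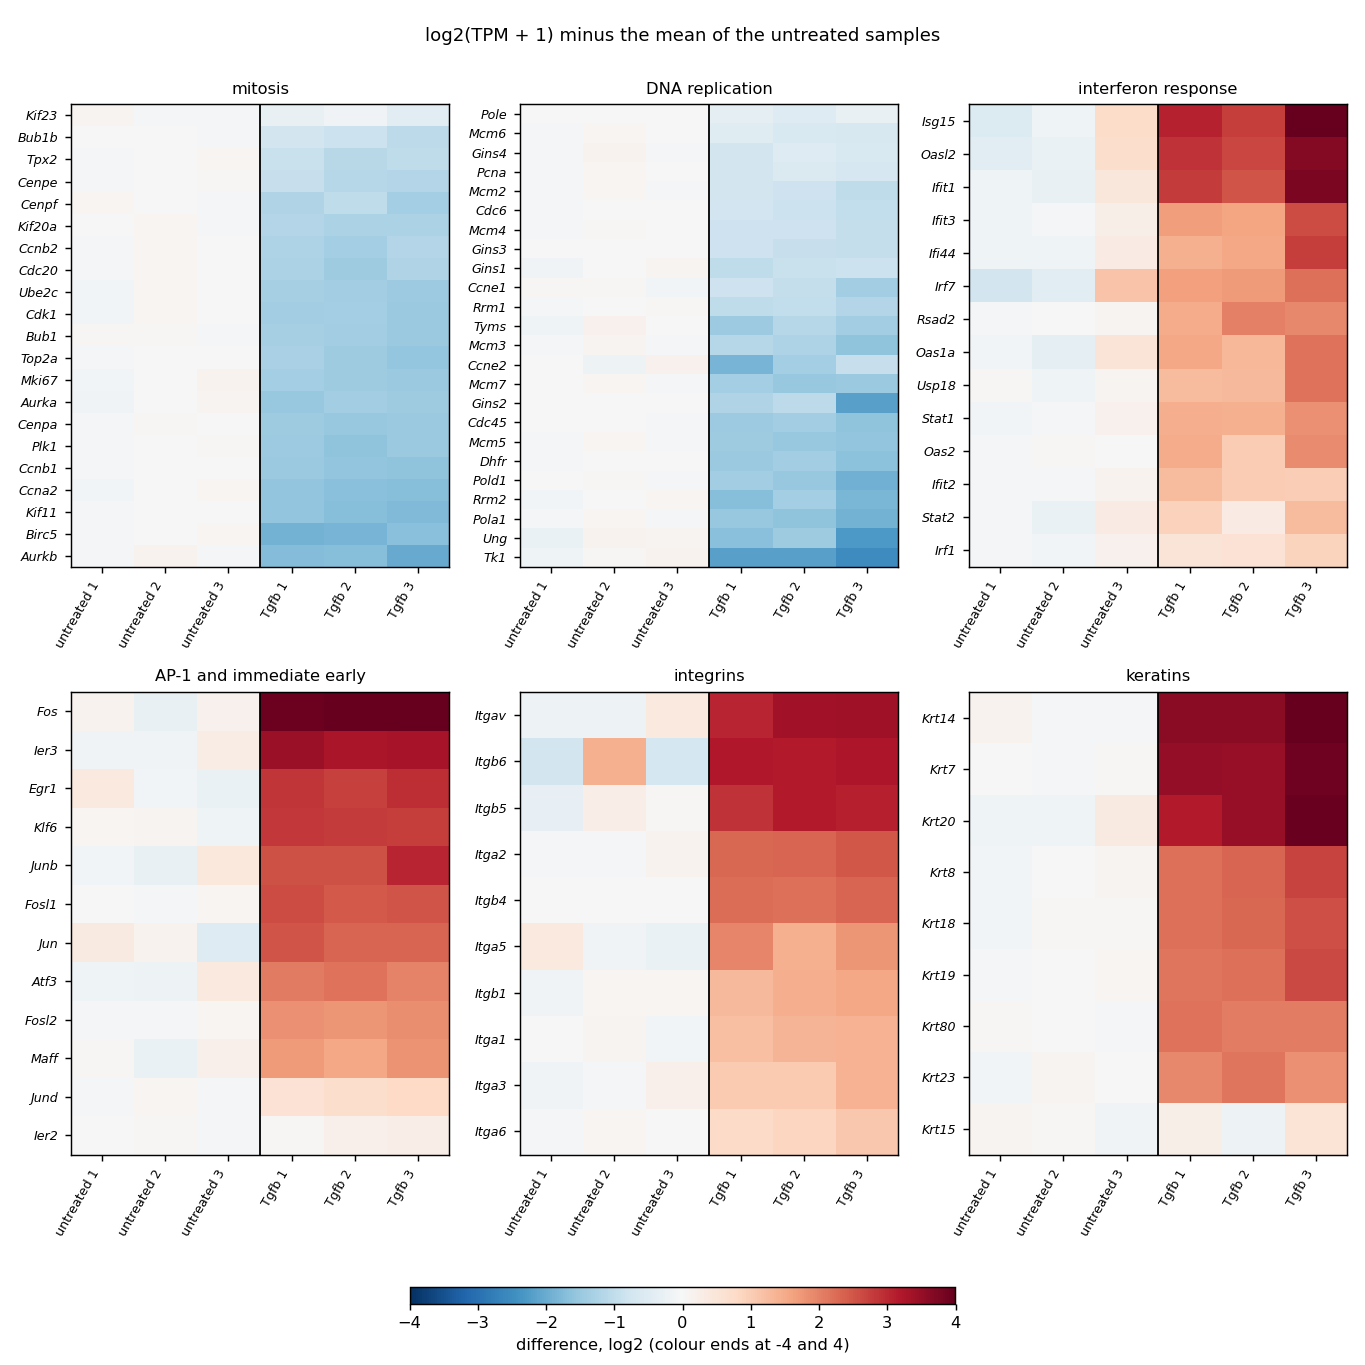
Colour gives log2(TPM + 1) of each sample minus the mean of the untreated samples, from -4 (blue) to 4 (red). Columns are the 6 samples and rows the tested genes of 6 lists, in order of their change. The mitosis and DNA replication rows are blue in all 3 Tgfb columns, and most interferon rows are darkest in Tgfb replicate 3.

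Genes of endoplasmic reticulum stress gave 0 higher and 8 lower of 17. Hspa5, the chaperone BiP, did not pass (0.09, adjusted p 0.324), while Asns, asparagine synthetase, was at 104, 110.2 and 125 TPM untreated and 47.9, 58.3 and 53.9 TPM with Tgfb. Ern2, the stress sensor of mucus-producing cells, was at 5.77, 5.6 and 5.85 TPM untreated and 2.86, 2.56 and 2.37 TPM with Tgfb. The count of lower genes was 5 without untreated replicate 2.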

How the data were processed

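The authors' deposited table gives 1 TPM value per gene and sample. Its columns sum to 1000000, read from the values, so depth is unknown and no count test was made. The submitters' processing notes name Trim Galore, Salmon, DESeq2 and the build GRCm39 without roles or versions. Per the labels' protocols, total RNA was made into libraries with the KAPA mRNA kit and read single-end in 2 runs that are not assigned to samples, so a run cannot be told apart from a group. All 6 columns were matched to samples by name.

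Groups were compared with limma 3.58.1 (R 4.3.3) on log2(TPM + 1) with an intensity trend, for genes with a mean of at least 1 TPM, with two-sided tests and Benjamini-Hochberg adjustment over all 12959 genes. The script was tested on simulated data. Alternatives were another pseudocount, filters, scalings, no trend, a replicate block, and leaving out samples. The comparison and the 47 gene lists were chosen with earlier results of these data known, so list counts are descriptions. Genes were named by 3 rules: the 15 largest rises and 15 largest falls at a mean of at least 10 TPM without overlap, every measured gene of the 6 pathway lists, and of each other list up to 2 rises, 2 falls and the most abundant gene. Ada, Aldh1a1, Aldh1b1, Atoh1, B2m, Btc, Cck, Ccl25, Cd74, Cdh1, Col3a1, Cyp3a11, Dclk1, Dcn, Dgat1, Epcam, Ereg, Gapdh, Gcg, Gkn3, Gstm1, Hbegf, Hspa5, Ier2, Il33, Irf7, Itgb4, Jun, Jund, Kif23, Klf4, Lamb3, Lats2, Ly6a, Lyz1, Lyz2, Mki67, Mttp, Muc2, Muc5ac, Nt5e, Pgc, Plau, Prom1, Rgmb, Slc28a2, Slc5a1, Snai1, Sox2, Sox9, Sprr1a, Tff1, Tgfa, Tgfb2, Tgfb3, Twist1, Zeb1 and Zeb2 were chosen after their values were seen. Some genes that these rules name are not reported here. Promoters came from RefSeq (GRCm38.p6), matched by symbol. No gene coordinates of the files' build are given.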

Additional observations from a re-analysis of the deposited data

How the results depend on the processing

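Counts of genes changed with the filter, as built: at a mean of at least 10 TPM, 858 genes were at least 2-fold higher and 652 at least 2-fold lower, among 7880 tested. In the other alternatives these and the counts at any size stayed within 1.5 times. When samples were dropped one by one, 3074 to 3354 genes were higher and 3140 to 3607 lower. Without replicate 1 of both groups, an alternative chosen after seeing the data, 2880 were higher and 3214 lower. With a replicate block 3700 were higher and 3913 lower. Deviations of same-numbered samples from their group means correlated at 0.013, 0.004 and 0.07. With 3 samples a group these values cannot decide whether the numbers pair the samples. In the block fit Cd74 (adjusted p 0.00569), Ereg (0.04) and Defa24 (0.034) passed, and 11 cholesterol genes and 7 antigen presentation genes were higher. Of 219 named genes past the threshold, 208 kept direction and call in every one of the 14 alternatives that tested them. A gene below the filter of an alternative, such as 10 TPM, was not assessed in it. The sign turned, for values that did not pass, under quantile normalization for Bmpr1a (-0.0261), Smad4 (-0.0047) and Calr (0.031), and across fits without a sample for Id2 (-0.1888 to 0.0732), Vim (-0.0284 to 0.2876) and B2m (-0.027 to 0.062). Medians near 0 turned too: Wnt targets (-0.1118 at 10 TPM, -0.0054 to 0.0767 without a sample), fatty acid oxidation (-0.062 by quantile, -0.0396 to 0.0975), Notch (-0.1007 at 10 TPM, -0.0636 by quantile, -0.0785 to 0.0591) and reference genes (-0.0594 to 0.1174). A larger reversal was that of chemokines and defence. Their median was 0.70 over 16 genes in the main fit and -0.6195 over the 11 tested at 10 TPM. The causes were not tested. Depth is unknown, and 3 samples a group limit the precision.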
